A study of Homo sapiens with 4 samples.

Results

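Interferon response genes are the genes that cells switch on when interferon, a signal of viral infection, reaches them. The 9 described here are ISG15, IFI6, IFIT1, IFIT2, IFIT3, MX1, OAS1, IRF1 and IRF7. They were chosen by name from 20037 protein-coding genes, with earlier results of these data known. The rule itself uses no measured value. The histone mark H3K14ac (acetylated lysine 14 of histone H3) was mapped by chromatin immunoprecipitation and sequencing (ChIP-seq) in MKN45, an established human gastric cancer cell line. One condition, shNT, carried a control hairpin RNA and the other, shNIT2, one directed at NIT2, the gene of an omega-amidase that acts in glutamine metabolism. Each condition had 1 H3K14ac library and 1 input library of chromatin without antibody. The labels name a single hairpin for NIT2 and no drug or interferon treatment. For each gene, the H3K14ac regions (peaks) of both lists were collected that touched the gene's span or the 1 kb on either side of it. In the shNIT2 list 8 of the 9 genes had a region, beside 47.0% of all protein-coding genes, and in the shNT list 5 of 9 did, beside 28.5%.

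Type I and type III interferons act through receptor-bound kinases, which activate transcription factors of the STAT family. With IRF9 these form the complex ISGF3, which binds a DNA element called the ISRE in the promoters of response genes. Interferon gamma instead leads to STAT dimers, which bind the GAS element. Acetylation of H3K14 is a mark of active promoters and enhancers. In epithelial cells many response genes are kept at a low level without infection, and some are raised by chronic signalling in tumours.

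From the promoters of these genes, 6 stretches are given here because the regions described below lie on them or beside them. Sequences are from RefSeq (GRCh38.p14), 5′ to 3′ on the gene's strand. The first 5 are the 250 bases before an annotated start, and the MX1 stretch lies just past the gene's first start. Capitals mark the ISRE core (GAAANNGAAA, or TTTCNNTTTC on the opposite strand), and in IRF1 alone the GAS element (TTCNNNGAA, the same on both strands).
ISG15, chr1:1013247-1013496, plus strand: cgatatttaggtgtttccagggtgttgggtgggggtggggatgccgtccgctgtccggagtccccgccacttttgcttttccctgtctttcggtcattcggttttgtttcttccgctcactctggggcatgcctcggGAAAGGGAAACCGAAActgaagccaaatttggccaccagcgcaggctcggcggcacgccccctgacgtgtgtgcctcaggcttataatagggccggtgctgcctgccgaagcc
IFI6, chr1:27672193-27672442, minus strand: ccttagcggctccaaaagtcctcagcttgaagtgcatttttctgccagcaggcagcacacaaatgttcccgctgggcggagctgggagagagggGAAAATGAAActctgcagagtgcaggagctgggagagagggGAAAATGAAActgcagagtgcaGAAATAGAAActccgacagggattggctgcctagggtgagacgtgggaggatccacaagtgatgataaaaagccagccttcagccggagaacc
IFIT1, chr10:89392373-89392622, plus strand: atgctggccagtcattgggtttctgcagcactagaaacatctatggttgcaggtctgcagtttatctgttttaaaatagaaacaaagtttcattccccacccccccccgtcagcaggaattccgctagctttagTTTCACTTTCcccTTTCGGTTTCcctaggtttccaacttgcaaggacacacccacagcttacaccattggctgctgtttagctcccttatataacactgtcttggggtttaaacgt
IFIT3, second start, chr10:89332279-89332528, plus strand: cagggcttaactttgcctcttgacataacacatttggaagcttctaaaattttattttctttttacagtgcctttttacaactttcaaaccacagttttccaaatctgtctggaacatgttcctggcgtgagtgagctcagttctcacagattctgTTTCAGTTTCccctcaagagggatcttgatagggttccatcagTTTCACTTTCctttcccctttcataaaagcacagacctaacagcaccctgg
IRF1, chr5:132490774-132491023, minus strand: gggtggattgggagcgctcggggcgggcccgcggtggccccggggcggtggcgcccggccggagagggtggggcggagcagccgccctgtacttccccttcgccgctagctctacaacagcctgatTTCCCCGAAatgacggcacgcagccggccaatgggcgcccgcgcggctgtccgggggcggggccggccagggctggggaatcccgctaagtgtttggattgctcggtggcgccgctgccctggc
MX1, chr21:41420563-41420584, plus strand: agaaatGAAACCGAAActgaat

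The promoter table held 10 windows for 7 of the 9 genes, each running from 250 bases before to 50 bases after a start. IFIT2 and IRF7 had no entry. An ISRE core was found in 7 of the 10 windows, belonging to ISG15, IFI6, IFIT1, IFIT3 and MX1. Over all 35116 windows of the table, 1255 or 3.57% held one. The GAS letters were found in 3 of the 10 windows, those of IRF1, OAS1 and the third start of MX1, against 7.66% of all windows. At the third MX1 start the GAS letters overlap an ISRE core. In ISG15 a pair of ISRE cores overlap and span positions -113 to -98 from the start, and IFI6 holds 3 separate cores between -156 and -84. These are matches of letters and were not measured as bound sites. Only the spacing of GAAANNGAAA was searched, so closer GAAA pairs were not counted. Such pairs stand before the OAS1 start (gaaacgaaa) and the second MX1 start (tttcgtttc, on the opposite strand). Windows without a match are therefore not shown to lack an ISRE.

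The lists differ in the fragments and background of their regions, and total reads are unknown. Each region carries the authors' fold enrichment, the pileup of fragments at the summit over the local background, with a pseudocount of 1 on each side. The whole-number pileup was solved from this fold and the authors' −log10 p. The lowest background, which rises with depth, was 0.278 fragments in the shNT list and 2.48 in the shNIT2 list, a ratio of 8.93. The shNT list held 39876 regions (median 6 fragments, median width 366 bp) and the shNIT2 list 28187 (median 22 fragments, 573 bp). Fold values are therefore ranked within a list and not compared between the lists, and no difference below has a replicate check. Among all protein-coding genes, 47.0% had a region in the shNIT2 list and 28.5% in the shNT list. Of 8 markers of gastric epithelium, 8 had one in the shNIT2 list and 6 in the shNT list. Of 8 lymphoid and myeloid markers 3 were marked in the shNIT2 list (PTPRC, CD3D and CD3E) and 1 in the shNT list (PTPRC). Fibroblast markers had 1 of 6 (PDGFRB) in the shNIT2 list and 0 in the shNT list, and endothelial markers 0 of 4 in the shNIT2 list and 2 (PECAM1 and VWF) in the shNT list. Acetylation does not measure the NIT2 transcript, so these lists do not check the knockdown.

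Among the 9 genes, ISG15, IFI6, IFIT1, IFIT3 and OAS1 had a region in both lists. IFIT2, MX1 and IRF1 had one in the shNIT2 list alone, IRF7 had none in either, and 0 had one in the shNT list alone. Of all protein-coding genes, 47.0% had a region in the shNIT2 list, 28.5% in the shNT list, 27.4% in the shNIT2 list alone and 8.9% in the shNT list alone. The 3 of 9 in the shNIT2 list alone are thus near the background share. Long genes catch more regions, and over the 11892 genes with spans between 1044 and 38657 bp, the range of the 9, the shares were 40.8% in the shNIT2 list and 14.5% in the shNT list. Regions of both lists overlapped by at least 1 bp at 4 of the 9 genes, ISG15, IFI6, IFIT3 and OAS1. This was so for 8.43% of all protein-coding genes and for 5.81% of those in the same range of spans. In the shNIT2 list 6 of the 9 genes had 2 or more regions, against 23.1% of all genes. With a window of 3 kb the genes marked in each list were the same. The span alone lost ISG15 and IFIT1 from the shNT list, which left 3.

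**Figure D1:**
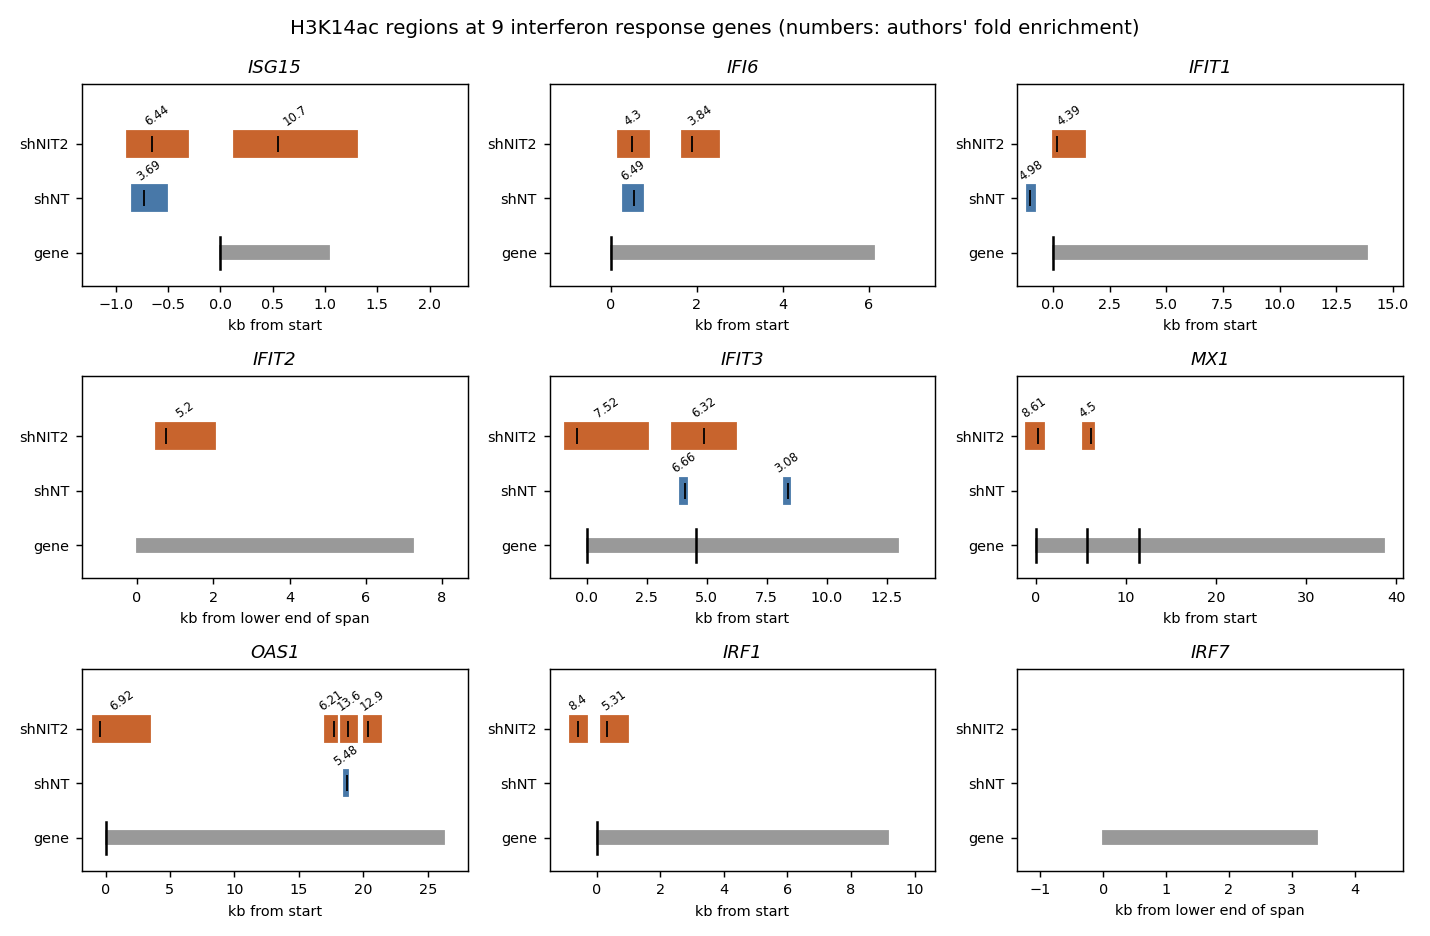
Each panel shows 1 gene: the grey bar is its span, black ticks on it are annotated starts, and the coloured bars are H3K14ac regions of the shNT list (blue) and the shNIT2 list (orange), with a tick at the summit and the authors' fold above. The horizontal axis is the distance in kb from the first start, in the direction of transcription, or from the lower end of the span for IFIT2 and IRF7. The shNIT2 regions gather at starts and OAS1 has a second group near 20 kb, while IRF7 has no region in either list.

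The 16 shNIT2 regions at these genes were wide and mostly strong for their list. Their widths ran from 518 to 4416 bp, and 15 of 16 were wider than the list's median. Folds ran from 3.84 to 13.6, and 15 of 16 lay above the list's median of 4.21. Per marked gene, the median of the strongest fold was 7.96 over the 8 genes and 5.17 over all 9418 genes with a region in that list. The median of summed region width per gene was 1677 bp against 1000 bp. Both values can rise with the number of regions, whose median was 2 over the 8 genes and 1 over all marked genes. Of the 16 regions, 11 had summits within 1 kb of a start, against 24.4% of the list, which also holds regions away from genes. Regions at starts were not compared separately. The 6 shNT regions were narrow, from 257 to 474 bp, on 3 to 8 fragments. Their folds ran from 3.08 to 6.66, with 4 of 6 above that list's median of 4.78. Local backgrounds were 1.0 to 2.13 times the genome-wide floor in the shNIT2 list and 1.0 to 2.18 times in the shNT list.

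**Figure D2:**
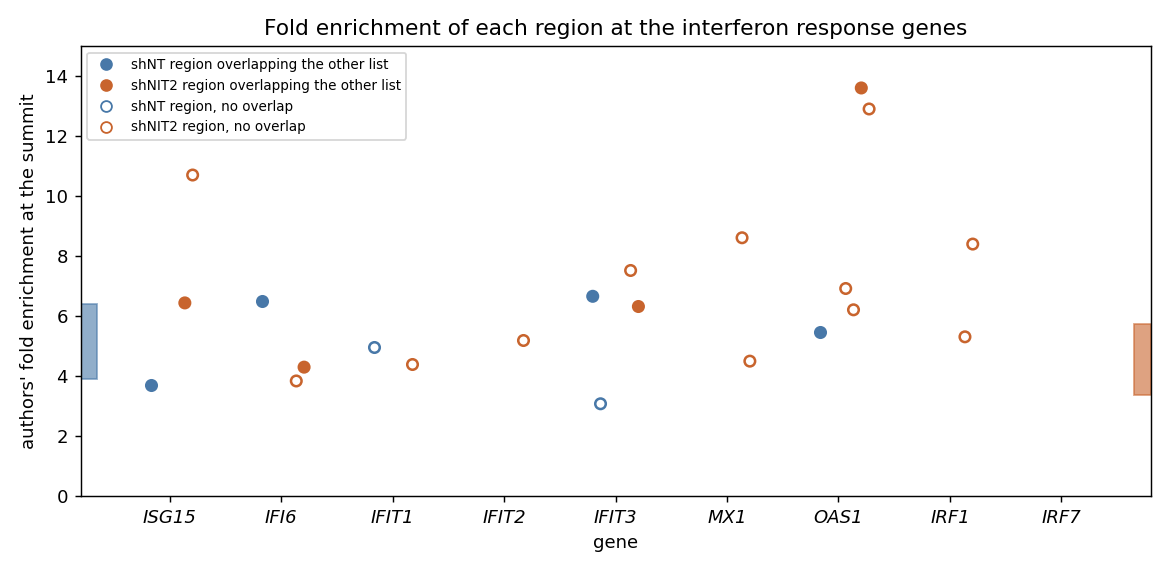
Points are the authors' fold enrichment of each H3K14ac region (vertical axis) at each of the 9 genes (horizontal axis), for shNT (blue) and shNIT2 (orange), filled where the region overlaps one of the other list. The bars at the left and right edges span the quartiles of all regions of the shNT list (3.91 to 6.41) and the shNIT2 list (3.38 to 5.75), and the OAS1 and ISG15 regions of the shNIT2 list are highest, at 13.6, 12.9 and 10.7.

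ISG15 encodes a ubiquitin-like protein that is joined to other proteins during the interferon response. Its span is chromosome 1, 1013497 to 1014540, with the start at the lower end. The shNIT2 list held a region from 1012603 to 1013185 (6.44-fold on 26 fragments) before the start and a stronger one from 1013627 to 1014805 (10.7-fold on 39 fragments) over the gene body. The second ranked above 95.0% of all regions of that list. Between them lay a gap of 441 bp that holds both the start and the overlapping ISRE cores printed above. The shNT list held 1 region, from 1012649 to 1012988 (3.69-fold on 4 fragments), which overlapped the upstream shNIT2 region with summits 79 bp apart. Over the gene body the shNT list held no region.

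IFI6 encodes a small membrane protein found in mitochondria and the endoplasmic reticulum. It lies on the minus strand of chromosome 1, 27666064 to 27672192. The shNT region from 27671436 to 27671909 (6.49-fold on 8 fragments) and the shNIT2 region from 27671309 to 27672033 (4.3-fold on 26 fragments) overlapped, with summits 40 bp apart. These were the closest summits of the 4 overlapping pairs. The shNT region ranked above 75.8% of its list, and the shNIT2 region above 52.2% of its own. A further shNIT2 region lay deeper in the gene, from 27669673 to 27670539 (3.84-fold on 20 fragments), with its summit at position 1892 from the start. No region covered the 3 ISRE cores before the start, and the nearest core lay 243 bp from the shNIT2 region.

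IFIT1, IFIT2 and IFIT3 encode proteins of an antiviral family with RNA-binding members, and their genes lie in a cluster on chromosome 10. IFIT1 (89392623 to 89406487) had a shNIT2 region from 89392618 to 89394040 (4.39-fold on 23 fragments) that covered its start. Its ISRE cores lay 89 and 102 bp outside that region. The shNT region at IFIT1, from 89391486 to 89391840 (4.98-fold on 7 fragments), lay upstream with its summit at position -1000, and did not overlap. IFIT2 (89302046 to 89309271) had a single shNIT2 region, from 89302538 to 89304085 (5.2-fold on 21 fragments), with its summit 748 bp inside the lower end of the span. The nearest shNT region was 22627 bp away, at IFIT3.

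IFIT3 (89327997 to 89340968) carried the widest acetylation of the 3 IFIT genes, 6139 bp in the shNIT2 list. One shNIT2 region, from 89327077 to 89330561 (7.52-fold on 32 fragments, 3485 bp), covered the first start and its ISRE cores. The other, from 89331561 to 89334214 (6.32-fold on 29 fragments, 2654 bp), covered the second start and the ISRE cores printed above. Both starts of IFIT3 thus lay inside shNIT2 regions. The shNT list held a region from 89331898 to 89332189 (6.66-fold on 8 fragments), inside the second shNIT2 region and upstream of the second start, with summits 817 bp apart. A weaker shNT region from 89336216 to 89336472 (3.08-fold on 3 fragments) overlapped no shNIT2 region, and only 2.73% of the shNT list had a lower fold. The RefSeq span of LIPA, the lysosomal acid lipase gene, runs across the 3 IFIT genes, so each of their regions also counts for LIPA. The first region of the neighbouring IFIT5, an RNA-binding member of the same family, was the strongest of the cluster in the shNIT2 list (89413919 to 89415677, 14.6-fold on 61 fragments). It overlapped a shNT region of 5.71-fold on 7 fragments. IFIT1B had no region in either list. Over the 119.0 kb of the cluster the shNIT2 list held 8 regions and the shNT list 5, with 2 of each overlapping the other list.

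MX1 encodes a dynamin-like GTPase that traps viral nucleocapsids. It spans chromosome 21, 41420558 to 41459214, with 3 annotated starts. The shNIT2 region from 41419416 to 41421428 (8.61-fold on 34 fragments) covered the first start and the ISRE core of the stretch printed above. It ranked above 90.5% of its list. A second shNIT2 region, from 41425761 to 41426958 (4.5-fold on 16 fragments), covered the second start. The third start had none within 1 kb, and the nearest region ended at position -5092 from it. In the shNT list the nearest region was 65240 bp away, and MX2, the paralogous gene beside MX1, had no region in either list.

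OAS1 encodes an enzyme that senses double-stranded RNA and makes oligoadenylates, which activate RNase L. With 4 shNIT2 regions over 7922 bp it had the most of the 9 genes (chromosome 12, 112906962 to 112933219). One region of 4416 bp, from 112906010 to 112910425 (6.92-fold on 28 fragments), covered the start and the GAS letters before it, and was wider than 99.6% of the list. The other 3 lay together far inside the gene, away from the annotated start. They ran from 112924009 to 112924933 (6.21-fold on 29 fragments), from 112925233 to 112926497 (13.6-fold on 66 fragments) and from 112927039 to 112928354 (12.9-fold on 44 fragments). The middle one was the strongest region of the 9 genes, with its summit at position 18792 from the start. The shNT list held its only OAS1 region there, from 112925471 to 112925797 (5.48-fold on 6 fragments), with summits 99 bp apart. At the start of OAS1 the shNT list held none. Next to OAS1, OAS3 had a shNIT2 region of 15.5-fold on 54 fragments (112937822 to 112940218), within which lay both of its shNT regions (3.91-fold on 4 fragments and 3.13-fold on 3). OAS2 had shNIT2 regions alone, the stronger of 6.21-fold. Across the 104.8 kb of the 3 OAS genes the shNIT2 list held 8 regions and the shNT list 3, and all 3 of these overlapped a shNIT2 region.

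**Figure D3:**
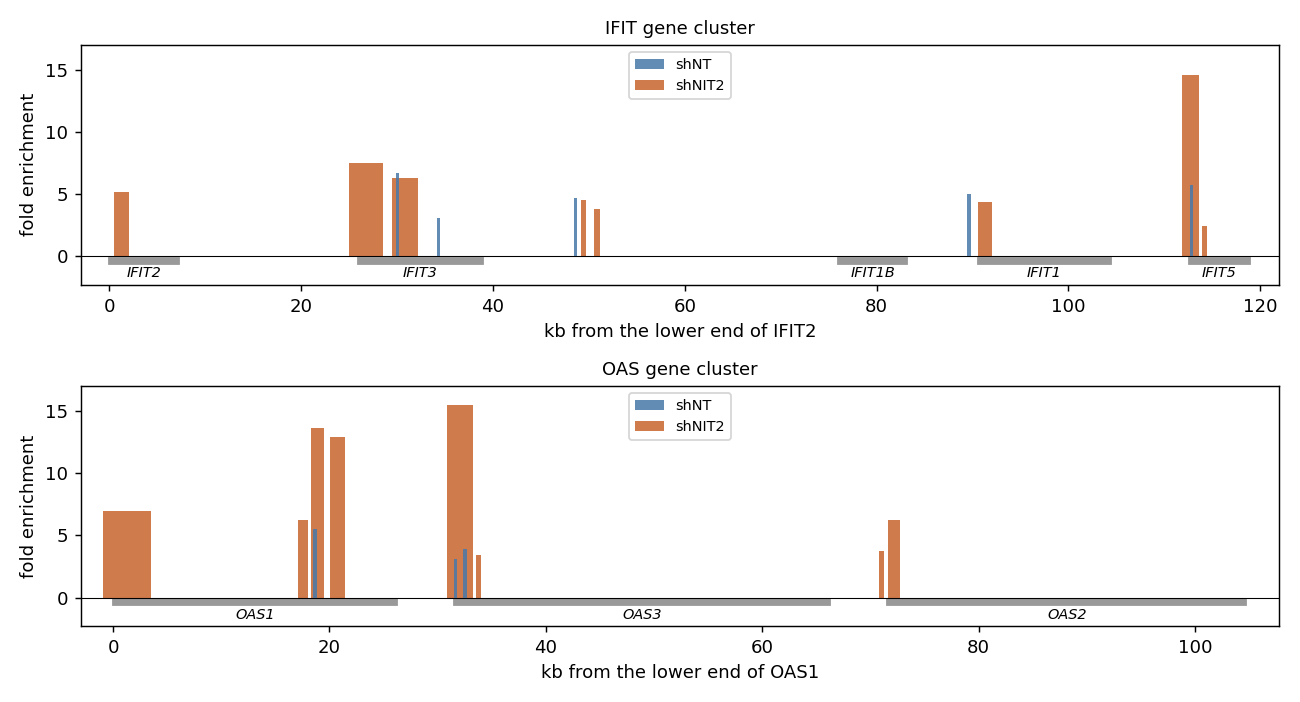
Bars are H3K14ac regions of the shNT list (blue) and the shNIT2 list (orange) across the IFIT and OAS gene clusters. Bar width is the region's extent (at least 0.3 kb is drawn) and height the authors' fold enrichment, the horizontal axis is kb from the lower end of IFIT2 or OAS1, and grey bars are gene spans. The highest shNIT2 bars stand at IFIT5 (14.6) and OAS3 (15.5) and inside OAS1 (13.6 and 12.9), and the first 3 of these overlie a shNT bar.

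IRF1 and IRF7 are transcription factors of the response. IRF1 is itself induced by interferon and IRF7 drives the interferon genes themselves. IRF1 lies on the minus strand of chromosome 5, 132481609 to 132490773. Its shNIT2 regions stood on either side of the start, from 132491088 to 132491605 upstream (8.4-fold on 36 fragments) and from 132489793 to 132490642 in the gene (5.31-fold on 26 fragments). The gap of 445 bp between them holds the start and the GAS letters printed above, as the gap of ISG15 holds its start and ISRE cores. In the shNT list the nearest region to IRF1 was 22832 bp away (4.51-fold on 5 fragments). IRF7 (chromosome 11, 612555 to 615950) was the only one of the 9 with no region in either list. The nearest shNIT2 region lay 35123 bp below it, near PHRF1 (4.02-fold on 13 fragments), and the nearest shNT region 51154 bp away, near RASSF7 and LMNTD2.

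Seen from the annotated starts, all 7 genes with an entry had a shNIT2 region within 1 kb of a start, and 4 of 7 had a shNT region there (IFI6, IFIT1, IFIT3 and ISG15). Of 15843 protein-coding genes with an entry, 39.3% had a shNIT2 region so placed and 6.16% a shNT region. This count was chosen after the regions had been seen. Summits within 1 kb of a start made up 11 of the 16 shNIT2 regions and 4 of the 6 shNT regions. Over all regions of the lists, 24.4% of the shNIT2 summits and 2.16% of the shNT summits lay within 1 kb of an annotated start of a protein-coding gene. The lists also hold regions away from genes, whereas the 16 and 6 were kept for touching a gene's window. These shares are therefore not a matched comparison. This rule of summits was also chosen after the regions had been seen.

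Of the 16 shNIT2 regions, 4 (25.0%) overlapped a shNT region, and of the 6 shNT regions 4 (66.7%) overlapped a shNIT2 region. For all regions of the lists the shares were 11.7% and 9.06%. Among the 20975 shNIT2 regions with 16 to 66 fragments, the range of these 16, the share was 11.6%. These shares include regions away from genes, so they are not matched to the 16 and 6. Counted by gene, 5 of the 9 had a shNT region and 4 an overlapping pair. Of all protein-coding genes, 5710 had a shNT region and 1689 an overlapping pair. No shNT region had fewer than 3 fragments. Divided by the ratio of the floors, the pileups of 7 of the 16 shNIT2 regions fall below 3, among them the single IFIT2 region (2.35) and the second MX1 region (1.79). Of those 7, 2 (28.6%) overlapped a shNT region, at ISG15 and IFI6, where the shNT pileups were 4 and 8 fragments. The other 9 come to 3 or more, with 4.37 at the ISG15 gene body, 4.93 at the last OAS1 region, 4.03 upstream of IRF1 and 3.81 at the first MX1 start. Of these 9, 2 (22.2%) overlapped a shNT region, at IFIT3 and OAS1. A scaled pileup of 3 or more does not show that a region would be called, since the local background also enters the call. The part of depth in the regions missing from the shNT list was not tested.

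The rest of the interferon pathway was examined through 101 further genes grouped by role. In the shNIT2 list 66 of them (65.3%) had a region, and in the shNT list 30 (29.7%), beside 47.0% and 28.5% of all protein-coding genes. The shNIT2 list alone marked 38, the shNT list alone 2 (HLA-C and GBP1), and 33 had none. At 15 genes regions of both lists overlapped. The same shares of all protein-coding genes were 27.4% for the shNIT2 list alone, 8.9% for the shNT list alone and 8.43% for overlapping regions. The shNT share was thus near its background. Gene length was not matched for these genes or their role groups. Spans ran up to 234518 bp (JAK1), and those of the interferon genes from 839 bp (IFNB1) to 4973 bp (IFNG).

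None of the 9 genes for interferons themselves (such as IFNB1, IFNG and IFNL1) had a region in either list. All 6 receptor genes were marked in the shNIT2 list, led by IFNGR2, a chain of the interferon gamma receptor (11.3-fold on 45 fragments). IFNLR1 of the type III receptor (4.72-fold) and IL10RB, which it shares with interleukin receptors (4.01-fold), followed. IFNAR1 (3.19-fold) and IFNGR1 (3.1-fold) were weak, above the strongest fold of only 8.37% and 6.04% of all genes marked in that list. The only region counted for IFNAR2 (33266624 to 33267117 on chromosome 21, 2.95-fold on 17 fragments) lay beyond its span and inside IL10RB, so these genes share it. IFNGR2 also had an overlapping pair inside the gene, where the shNT region was 6.5-fold on 8 fragments. Of the 7 genes for kinases, STATs and IRF9, 6 were marked in the shNIT2 list and 3 in the shNT list, and JAK2 in neither. IRF9, the DNA-binding part of ISGF3, had the highest fold of this group (14.1-fold on 109 fragments), then the kinase JAK1 (10.2-fold). The region at IRF9 also lay within 1 kb of RNF31. JAK1 and STAT3 had overlapping pairs, and the shNT region of STAT3 was 9.6-fold on 16 fragments. Of the 6 other IRF genes, 3 were marked in the shNIT2 list and 1 in the shNT list. IRF2 had 7.76-fold and IRF3 2.85-fold in the shNIT2 list.

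Sensors of foreign nucleic acid and their signalling had 9 of 12 genes marked in the shNIT2 list and 2 in the shNT list. The adaptors TRAF3 (8.71-fold) and TICAM1 (7.04-fold) and the kinase TBK1 (7.35-fold) were the strongest. Negative regulators had 7 of 7 and 3. The phosphatase gene PTPN6 led with 16.4-fold, in a region with its summit outside the span that also touches the window of PHB2. The only other PTPN6 region (4.43-fold) also had its summit outside the span and touches the window of C12orf57. IRF2BP2 (13.7-fold) and PTPN2 (7.81-fold) followed, and IRF2BP2, SOCS3 and USP18, which removes ISG15 from proteins, had overlapping pairs. The other antiviral effectors had 28 of 36 in the shNIT2 list and 16 in the shNT list. All 16 were marked in both lists, and 9 of them with overlapping regions. OAS3 (15.5-fold), IFIT5 (14.6-fold) and HERC6, an E3-like ligase gene (13.5-fold), were the strongest. Besides OAS3 and IFIT5, the overlapping pairs were at IFI44, OASL, BST2, the RNA-activated kinase EIF2AK2, TRIM25, and RSAD2 and CMPK2, neighbours that share 1 pair (5.25-fold on 6 fragments in the shNT list, 6.88-fold on 34 in the shNIT2 list). The regions of the BST2 pair had summits outside its span and also touch the window of MVB12A. Antigen presentation and chemokine genes had 7 of 18 in the shNIT2 list and 3 in the shNT list. TAP1 and PSMB9, a peptide transporter and an immunoproteasome subunit, share 1 region (7.56-fold on 40 fragments), and B2M had 7.42-fold. The chemokine genes CXCL9, CXCL10 and CXCL11 had none in either list.

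**Figure D4:**
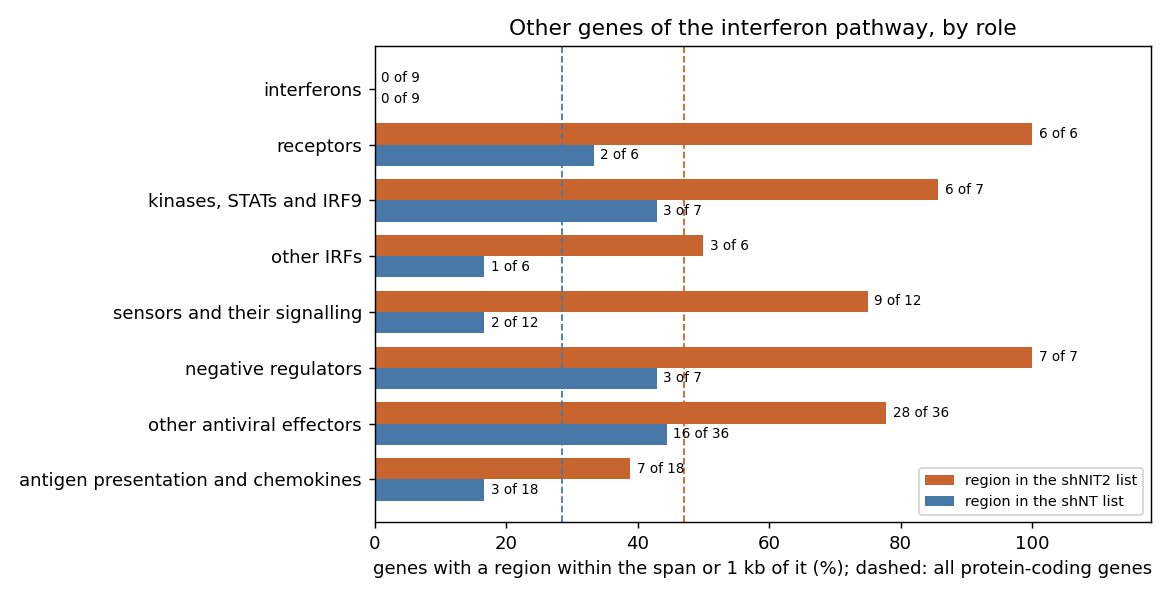
Bars give the percentage of genes in each role group with an H3K14ac region in the shNIT2 list (orange) or the shNT list (blue), with the counts beside them. Dashed lines are the shares of all protein-coding genes (47.0% and 28.5%), and the groups run from 0 of 9 for the interferons to 6 of 6 receptors and 7 of 7 negative regulators in the shNIT2 list.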

How the data were processed

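H3K14ac ChIP-seq of MKN45 cells gave 2 peak lists, 1 per condition. Per the labels' protocols, fixed chromatin was sonicated and sequenced single-end. MACS2 2.1.1, Bowtie2 2.2.6, Trimmomatic 0.35, cutadapt 1.9.1, ChIPseeker, FastQC and the build hg38 are listed in the submitters' processing notes. Any role of the inputs as the caller's control was not given in the sources used here. Per peak, the deposited lists hold the authors' score (derived from q), the authors' fold enrichment (a ratio), the authors' −log10 p-value and −log10 q-value (at a q threshold of 0.05) and the summit's offset.

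With 1 library per condition, no test across samples was made. Regions were assigned to genes of a RefSeq table (GRCh38.p14, spans without exons) by at least 1 bp of overlap with the span and 1 kb on either side. Starts came from a RefSeq promoter table. Coordinates are 1-based on hg38. The pileup was solved from fold and −log10 p by the Poisson upper tail within 0.1%, which succeeded for 99.96% of regions in each list. The solution and the overlap count were tested on simulated data. Total reads are unknown. The named genes are the 9 members, genes touched by their regions or nearest to them, and of the pathway list the 3 highest shNIT2 folds per role and the genes with overlapping regions. Some genes that this rule would name are not reported here. Other pathway genes were named after their values were seen. Members and lists were chosen with earlier results of these data known. Alternatives changed the window, the q threshold, the overlap rule and the number of regions. Python 3.11.15, pandas 2.3.3 and scipy 1.17.1 were used.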

Additional observations from a re-analysis of the deposited data

How the results depend on the processing

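The count of 8 marked genes in the shNIT2 list stayed with the span alone, 3 kb, −log10 q of at least 5 and summits only. Taking equal numbers of strongest regions kept the whole shNIT2 list, the smaller one, so its count could not move. At −log10 q of at least 10 the count was 5, without IFI6, IFIT1 and IFIT2. The shNT count of 5 was 3 with the span alone, 2 at −log10 q of at least 5 (IFI6 and IFIT3) and 0 at 10. At these thresholds 5.93% and 1.03% of all genes kept a shNT region, against 36.0% and 22.7% a shNIT2 region. The same threshold is not equally strict for lists with unequal fragment numbers. The 4 genes with overlapping regions became 2 at −log10 q of at least 5, 0 at 10 and 2 (ISG15 and IFI6) with a 50% reciprocal overlap. Under the span alone, and under equal numbers of strongest regions, ISG15 lost its shNT region and 3 overlapping genes remained. The share of all genes with overlapping regions was not computed at these settings. Of the 101 pathway genes, the shNT list marked 7 at −log10 q of at least 5 and 1 at 10, and the shNIT2 list marked 41 at 10. These thresholds remove regions by construction. The other 20 values of these counts stayed within 1.5 times, including the shNIT2 count at equal numbers, which was fixed. No paired analysis was possible because each condition had 1 H3K14ac library.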
